A study of Mus musculus with 2 samples.

Results

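Genomic imprinting is the silencing of 1 parental copy of a gene, and 8 imprinted genes outside the best known brain clusters are described here: Gnas, H19, Kcnq1ot1, Cdkn1c, Grb10, Airn, Nap1l5 and Trappc9. They were chosen by symbol, and each matched 1 of the 55536 annotated genes. Total RNA was sequenced from 2 left cerebral cortices, from male mice of B6CASTF1/J, a hybrid of the strains C57BL/6J and CAST/EiJ, aged 10 days, with no treatment named. The tissue came from The Jackson Laboratory, and libraries started from 300 ng of RNA with a mix of ERCC spike-in RNAs added. The libraries, called replicate 1 and replicate 2, are labelled as biological replicates of numbered animals, although both animals carry the same donor identifier. They form the only group, so no comparison between conditions, test or p-value is given, and errors are the SD over these libraries (n = 2), which may in part be technical.

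An imprinted gene keeps a mark of DNA methylation, set in the egg or the sperm, at an imprinting control region, and this mark decides which parental copy is used. At several loci the unmethylated copy of the control region starts a long non-coding RNA that keeps its neighbours silent, as Kcnq1ot1 does around Cdkn1c and Airn does around Igf2r in mice. In brain these loci carry special cases. Grb10 is made from the maternal copy in most tissues but from the paternal copy, with other first exons, in neurons. Trappc9 and Kcnk9 are used mainly from the maternal copy while Peg13 comes from the paternal one. The deposited values sum both parental copies and rest on the genome of 1 parent strain, so nothing here says which copy was used.

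The results for Gnas and Grb10 turn on which first exon is used, so the 250 bases before 4 of their start sites are shown first, from RefSeq on GRCm38.p6, in the direction of transcription and with CG pairs, the sites of DNA methylation, in capitals. The first pair precedes exon 1 of Gs-alpha and exon 1A of Gnas, and the second pair precedes the upstream and a downstream start of Grb10.
Gnas, before Gs-alpha exon 1, chr2:174329756-174330005, plus strand: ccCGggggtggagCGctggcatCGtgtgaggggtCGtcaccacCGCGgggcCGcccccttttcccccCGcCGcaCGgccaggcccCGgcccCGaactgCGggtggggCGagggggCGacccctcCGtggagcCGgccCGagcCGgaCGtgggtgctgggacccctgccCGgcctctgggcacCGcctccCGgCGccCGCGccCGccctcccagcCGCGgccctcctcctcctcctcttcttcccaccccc
Gnas, before an exon 1A start, chr2:174327518-174327767, plus strand: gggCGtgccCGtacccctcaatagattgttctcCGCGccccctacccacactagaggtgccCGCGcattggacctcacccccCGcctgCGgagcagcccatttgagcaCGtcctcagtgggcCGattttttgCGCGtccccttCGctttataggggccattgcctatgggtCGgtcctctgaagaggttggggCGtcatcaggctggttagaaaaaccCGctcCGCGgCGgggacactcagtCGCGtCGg
Grb10, before the upstream start, chr11:12037421-12037670, minus strand: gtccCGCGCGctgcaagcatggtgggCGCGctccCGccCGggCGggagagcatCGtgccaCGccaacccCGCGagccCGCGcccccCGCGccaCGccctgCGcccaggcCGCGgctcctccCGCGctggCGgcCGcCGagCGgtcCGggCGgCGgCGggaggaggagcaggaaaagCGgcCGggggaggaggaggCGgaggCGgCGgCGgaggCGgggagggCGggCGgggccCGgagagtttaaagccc
Grb10, before a downstream start, chr11:12027972-12028221, minus strand: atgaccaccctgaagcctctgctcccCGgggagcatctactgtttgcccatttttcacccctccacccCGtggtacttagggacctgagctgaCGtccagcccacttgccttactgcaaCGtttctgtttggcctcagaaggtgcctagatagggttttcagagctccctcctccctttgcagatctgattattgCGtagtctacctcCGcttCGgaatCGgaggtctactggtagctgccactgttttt
The window before the upstream start of Grb10 held 40 CG pairs, and 1.31% of the 32851 RefSeq promoter windows of this length had as many or more. The Gs-alpha window held 29 CG pairs (6.78% of promoters had as many) and the exon 1A window 22 (14.8%). The window before a downstream start of Grb10, that of Grb10-203, held only 8 (43.0%), near the median of 6 over all promoters. The other downstream transcripts with RNA, Grb10-207 and Grb10-209, start elsewhere and had no window, so their CG content was not read. The exon 1A window lies partly inside annotated exon 1A sequence, since some annotated starts are further upstream. Of the 8 genes, 5 had an entry, with 9 windows in all. H19, Cdkn1c and Trappc9 had no entry. The bases TGCCGC, which hold a CG pair and are the core of the methylated motif that the protein ZFP57 binds, were searched on both strands. They occurred in 1 of the 9 windows, that of Nap1l5, and in 8.68% of all promoter windows.

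All 8 genes were detected, meaning 1 TPM or more in both libraries, against 27.6% of all annotated genes (15302), but the genes were chosen with earlier results of these data known. TPM is a level corrected for transcript length and brought to one common total per library. Levels spanned more than 2 orders of magnitude. Gnas, the gene of the stimulatory G protein alpha subunit, was far above the others and ranked 57 among all genes. Nap1l5 came next, Trappc9 and Grb10 followed close together, and Cdkn1c, Airn, Kcnq1ot1 and H19 stayed under 10 TPM. The 3 non-coding genes were thus the lowest of the 8 on this length-corrected scale. The order of means was the same in the second set of deposited values, a further quantification of the same libraries, although absolute levels there were higher. Its ratio to the first ran from 1.38 for Grb10 to 2.47 for Airn, and its median over all detected genes was 1.52.

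**Figure D1:**
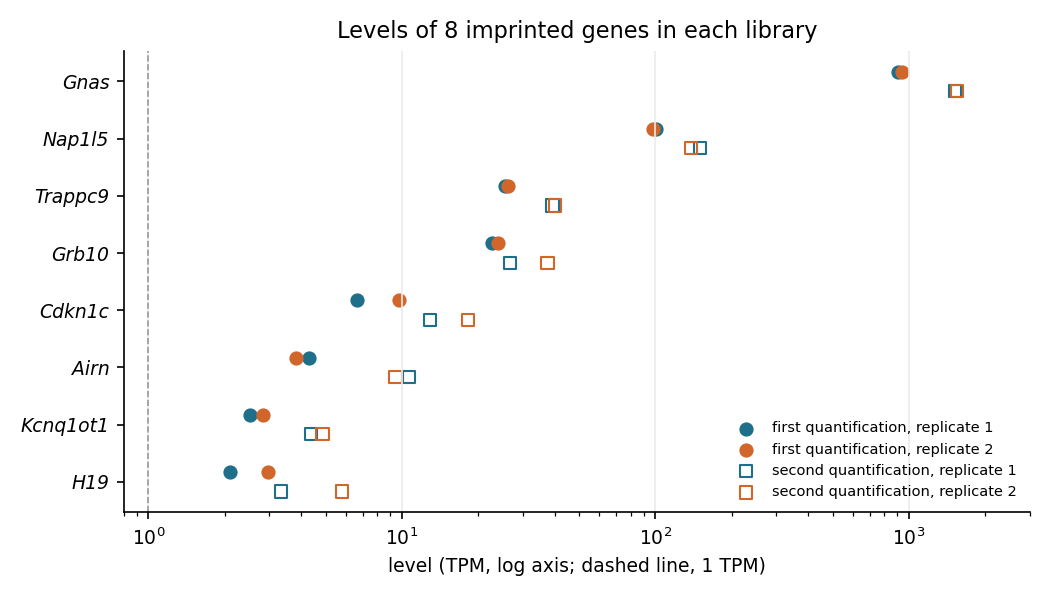
Level of each gene in TPM on a log axis, with filled circles for the first and open squares for the second quantification, in blue for replicate 1 and orange for replicate 2. The circles run from 2.10 TPM for H19 to 944 TPM for Gnas, and those of H19 and Kcnq1ot1 overlap.

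Gnas (ENSMUSG00000027523.19, mm10 chr2:174284320-174346744, plus strand) had 910.3 TPM in replicate 1 and 944 TPM in replicate 2, from 29099 and 28801 expected counts. The libraries thus lay close together, and the gene ranked 25 of 22028 protein-coding genes. Gs-alpha couples many receptors to adenylyl cyclase, which makes cyclic AMP. Among the G protein alpha genes listed beside it, the nearest was Gnao1, of the Go class, with 497 TPM in replicate 1 and 513 TPM in replicate 2. Gnal, which encodes the close relative of Gs-alpha known from olfactory and striatal neurons, had 96.6 and 89.3 TPM, so that Gnas stood at 10.0 ± 0.807 times its level. All 9 adenylyl cyclase genes listed were detected, where 27.6% of all annotated genes were. They ran from 1.56 and 2.07 TPM for Adcy4 to 199 and 207 TPM for Adcy1, a calmodulin-stimulated cyclase of neurons.

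The Gnas locus gives several RNAs that share the downstream exons but start at different first exons. The Nesp first exon, used from the maternal copy, codes for a neuroendocrine secretory protein. The Gnasxl first exon, used from the paternal copy, codes for an extra-large form of Gs-alpha. Exon 1A, also paternal, gives an RNA that is largely non-coding, and the ordinary first exon of Gs-alpha is used from both copies in most tissues. The 24 annotated transcripts were grouped by these first exons.

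By first exon, Gs-alpha transcripts held 868 TPM in replicate 1 and 884 TPM in replicate 2. They made up 94.5 ± 1.17% of the gene. Transcripts of the exon 1A class held 30.5 TPM in replicate 1 and 51.3 TPM in replicate 2, or 4.39 ± 1.47%. The Nesp class held 0.95 and 3.18 TPM, and the Gnasxl class 0.06 and 0.10 TPM with 4.40 and 6.96 expected counts. Gnasxl RNA was therefore at the edge of what this depth shows. Starts inside the gene made up 0.855 ± 0.470%.

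The second quantification kept Gs-alpha first but moved much of the gene to the exon 1A class. There the Gs-alpha class held 76.4 ± 1.46% and the exon 1A class 21.5 ± 0.819%, at 336 and 326 TPM. Much of the signal of that class belonged to Gnas-218, a processed transcript of 607 bases and 8 exons. It had 213 TPM in replicate 1 and 156 TPM in replicate 2 there, against 10.15 and 28.4 TPM in the first quantification. Its first exon (chr2:174328023-174328131) does not overlap those of the other class members, which all end at base 174327941. Gnas-218 was grouped with them only because it lies within 1000 bases. The Nesp class held 3.99 TPM in replicate 1 and 53.8 TPM in replicate 2, a gap between libraries that the first quantification did not show at this size. The share of the exon 1A class thus differed more between the quantifications than between the libraries, and its size cannot be given from these tables.

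**Figure D2:**
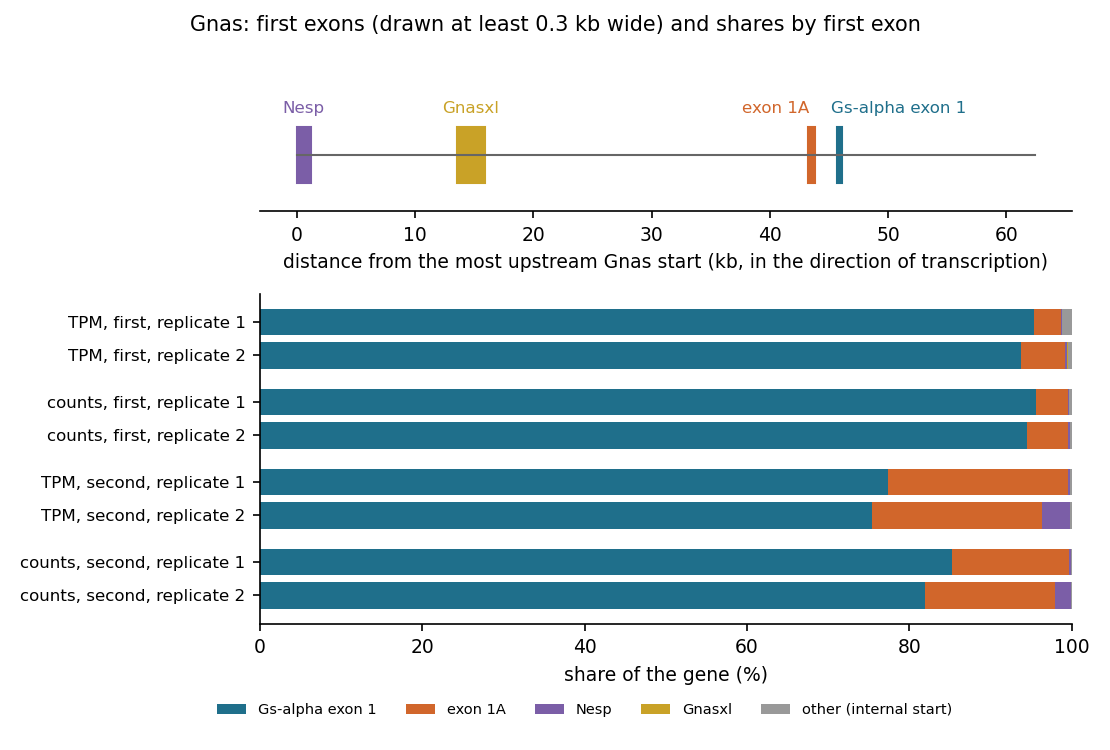
Top, the 4 groups of annotated Gnas first exons by distance in kb from the most upstream start. Bottom, the share of Gnas in percent held by each group, by TPM and by counts, for both quantifications and both libraries; Gs-alpha exon 1 holds 75.4% to 95.5% in every bar, and exon 1A 3.35% to 22.1%.

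Full-length Gs-alpha RNA comes in a long and a short form, which differ by an exon of 45 bases, and both are known to give active protein. Around that exon (mm10 chr2:174336747-174336791, plus strand) the 3 full-length annotated transcripts read as follows, with 15 bases of the neighbouring exons on each side in lower case and the bases that differ in capitals.
Gnas-208: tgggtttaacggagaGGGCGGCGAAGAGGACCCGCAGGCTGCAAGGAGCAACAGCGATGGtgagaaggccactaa
Gnas-207: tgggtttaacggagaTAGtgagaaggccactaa
Gnas-206: tgggtttaacggagatgagaaggccactaa
Gnas-208 carries the exon, Gnas-206 skips it, and Gnas-207 skips it and starts the next exon 3 bases earlier, so it keeps the bases TAG. In the first quantification Gnas-208 had 526 TPM in replicate 1 and 555 TPM in replicate 2. The long form made up 65.0 ± 1.52% of the full-length Gs-alpha TPM, and 65.5 ± 0.618% in the second quantification. This share differed between the quantifications by less than the spread between libraries.

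The split of the short form did not hold between the quantifications. Gnas-206 had 280 and 267 TPM in the first quantification, where Gnas-207 had 17.01 and 17.55 TPM. In the second, Gnas-206 had 22.3 and 20.9 TPM, where Gnas-207 had 382 and 373 TPM. Gnas-207 held 5.95 ± 0.304% of the short form in the first quantification and 94.6 ± 0.151% in the second, with the 2 libraries alike in each. Gnas-207 also starts further upstream than Gnas-206, so the 3-base extension is not the only difference between them. The TPM of the long form against the short form can be read from these data, but the use of the extension cannot.

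Antisense to the upstream Gnas first exons runs Nespas, a paternal non-coding RNA that overlaps the gene's span by 11117 bases. It had 2.39 TPM in replicate 1 and 2.55 TPM in replicate 2, from 81 and 89 expected counts, and this value depends on how strands were counted, which the sources used here do not say. The hairpins of Mir296 and Mir298, which lie beyond the annotated end of Nespas on its strand, had no counts, but their deposited effective length is 0 and such short RNAs cannot be measured in these libraries. Of the 9 other genes listed for the locus, 6 were detected, where 27.6% of all annotated genes were. The highest was the transcription elongation gene Nelfcd at 27.6 and 26.8 TPM.

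H19 (ENSMUSG00000000031.16, mm10 chr7:142575529-142578143, minus strand), a maternal non-coding RNA that is abundant in the embryo and falls after birth in most tissues, had 2.10 TPM in replicate 1 and 2.97 TPM in replicate 2. These rested on 87 and 120 expected counts. Among 5854 genes annotated as long intergenic RNAs it still ranked 165. Its main transcript H19-202 held 81.6 ± 5.01% of the gene in the first quantification and 58.2 ± 13.2% in the second. There H19-206, of 761 bases, held 22.1 ± 10.4% and H19-204 5.84 ± 8.26%. H19-205 held 16.5 ± 7.63% and 13.8 ± 5.42%. With so few counts these shares are loosely set.

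The first exon of H19-202 also holds both arms of miR-675, the microRNA that H19 is processed to in the embryo and placenta. They are shown because they are the known small RNA product of this exon, with the seed (bases 2 to 8) in capitals, from RefSeq on GRCm38.p6.
miR-675-5p, chr7:142577112-142577133, minus strand: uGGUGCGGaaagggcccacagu
miR-675-3p, chr7:142577078-142577099, minus strand: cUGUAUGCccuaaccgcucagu
The arms have different seeds. The hairpin had no counts in either library, and at a deposited effective length of 0 this says nothing about the microRNA.

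Igf2, the growth factor gene that shares enhancers with H19 and is used from the paternal copy, was far higher, at 101 TPM in replicate 1 and 131 TPM in replicate 2. Igf2 over H19 was 48.0 in replicate 1 and 44.2 in replicate 2, so both genes shifted in the same direction between the libraries. Igf2 RNA in brain is known chiefly from the meninges, vessels and choroid plexus. Mrpl23 and Lsp1 were the remaining detected genes of 11. Lsp1 had 3.76 TPM in replicate 1 and 2.71 TPM in replicate 2. Mrpl23, a mitochondrial ribosome gene, had 2.23 and 3.15 TPM but 55.8 and 59.8 TPM in the second quantification, a ratio of 21.5 between the quantifications, so its level is not settled. Ins2, Th, Syt8, Tnni2 and Igf2os stayed under 1 TPM.

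The Kcnq1 domain gave 2 of the genes. Kcnq1ot1 (ENSMUSG00000101609.2, mm10 chr7:143203458-143296549, minus strand), the paternal RNA that silences its neighbours in cis, is annotated as a single exon of 93092 bases. It had 4799 expected counts in replicate 1 and 5177 in replicate 2, more than Nap1l5 in both libraries, yet only 2.51 and 2.83 TPM because of its length. All of its bases lie inside the span of Kcnq1 on the opposite strand. Without strand, RNA of Kcnq1ot1 and unspliced RNA of Kcnq1 cannot be told apart. Kcnq1 itself, a potassium channel gene, had 0.96 TPM in replicate 1 and 0.56 TPM in replicate 2 over its spliced transcripts.

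Cdkn1c (ENSMUSG00000037664.13, mm10 chr7:143458339-143461050, minus strand) encodes p57, an inhibitor of cyclin-dependent kinases used from the maternal copy, which holds back the division of progenitors. It had 6.64 TPM in replicate 1 and 9.75 TPM in replicate 2, from 211 and 264 expected counts. Replicate 2 was thus higher, but part of the gap in TPM came with the effective length, which the authors' tables give as 1548 bases in replicate 1 and 1374 bases in replicate 2. The ratio of CPM (counts divided by the library total and not by length), replicate 2 over replicate 1, was 1.29 (95% Clopper-Pearson interval 1.08 to 1.56, counting error only). The effective length of a gene follows its transcript mix, and Cdkn1c-205, of 667 bases, held 20.3% of the gene in replicate 1 and 34.3% in replicate 2. Cdkn1c-201 held 52.0% and 36.4%, and Cdkn1c-202 27.7% and 29.3%. Cdkn1c-204, a retained intron form of 500 bases, was listed at 0 in the first quantification but held 31.7 ± 2.74% in the second.

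The related inhibitors were higher and steadier. Cdkn1b, which encodes p27, had 20.99 TPM in replicate 1 and 22.8 TPM in replicate 2, and Cdkn1a, which encodes p21, had 18.85 and 20.1 TPM. Cdkn1b stood at 2.75 ± 0.580 times Cdkn1c. Of the other 11 genes listed for the domain, 5 were detected, namely Cd81 at 168 and 174 TPM, Nap1l4 at 66.1 and 71.1 TPM, Cars, Tssc4 and Osbpl5. Phlda2 and Slc22a18, maternal genes next to Cdkn1c, had at most 0.16 TPM, and Ascl2 at most 0.27 TPM.

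Grb10 (ENSMUSG00000020176.17, mm10 chr11:11930508-12038683, minus strand) encodes an adaptor that binds activated insulin and IGF receptors and restrains their signal. It had 22.65 TPM in replicate 1 and 23.96 TPM in replicate 2, from 1589 and 1679 expected counts. Its relative Grb14 was close, at 20.7 and 18.4 TPM, while Grb7 had 1.23 and 0.91 TPM. The receptor genes Insr and Igf1r averaged 23.7 and 20.3 TPM. Grb10, Grb14, Insr and Igf1r thus lay within a narrow band, and the mean ratio of Grb10 to Grb14 was 1.20 ± 0.146.

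Both classes of Grb10 first exon carried RNA. Transcripts from the upstream first exons had 12.6 TPM in replicate 1 and 13.2 TPM in replicate 2, or 55.4 ± 0.576% of the gene. All of it was in Grb10-201, whose first exon follows the CG-dense window shown above, while Grb10-206, which starts before that window, was listed at 0. Transcripts from the downstream first exons, the class described as neuronal and paternal, had 8.90 and 10.3 TPM, or 41.1 ± 2.54%. By expected counts the upstream share was 78.8 ± 3.05% and the downstream share 18.5 ± 4.05%, because 2 of the 3 downstream transcripts are short. Grb10-207, of 430 bases, alone held 19.75 ± 0.526% of the TPM in the first quantification and 0 in the second. Grb10-209, of 940 bases, held 10.8 ± 1.67% in the first and 20.03 ± 3.88% in the second, where the internal Grb10-204 held 5.21 ± 7.36%. The full-length pair, Grb10-201 from the upstream class and Grb10-203 from the downstream class, had 12.6 and 1.80 TPM in replicate 1 and 13.2 and 3.15 TPM in replicate 2.

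In the second quantification the upstream share was 73.6% in replicate 1 and 47.7% in replicate 2, and the downstream share 22.4% and 34.2%. The gene total moved with it, to 26.7 TPM in replicate 1 and 37.6 TPM in replicate 2, while in the first quantification the libraries were alike. The upstream class held more than the downstream class in every value, library and quantification computed. Its lead varied widely with the measure used.

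**Figure D3:**
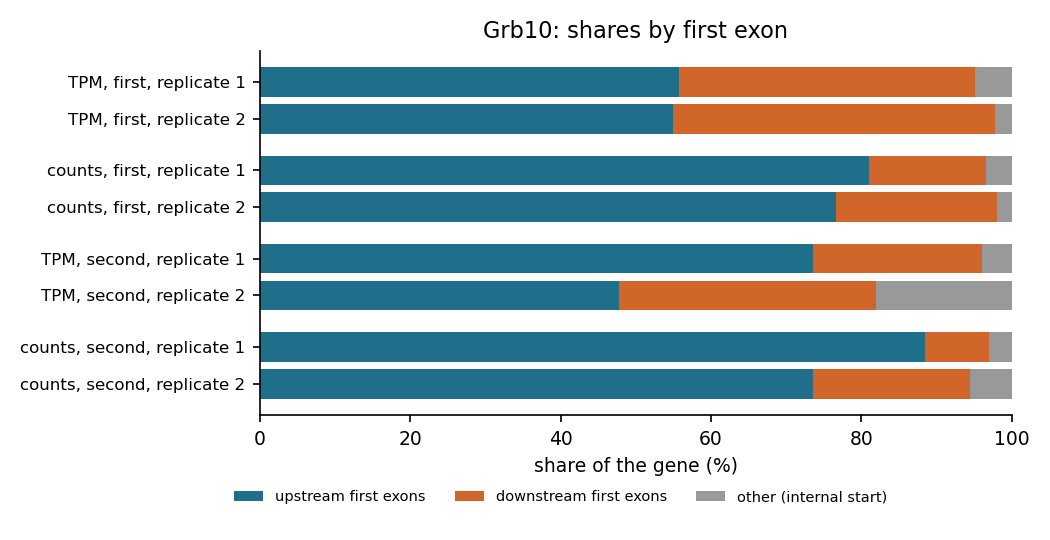
Share of Grb10 in percent held by transcripts from upstream, downstream and internal first exons, by TPM and by counts, for both quantifications and both libraries. The upstream share is the longest segment in all 8 bars, from 47.7% to 88.5%.

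Airn (ENSMUSG00000078247.4, mm10 chr17:12741311-12860136, plus strand) is the paternal RNA that silences Igf2r in most mouse tissues, and it is known as a mostly unspliced RNA. The annotation holds only spliced forms of at most 1375 bases for a gene that spans 118826 bases. Unspliced RNA can thus be counted only where its reads lie inside the annotated exons. The annotated forms had 4.31 TPM in replicate 1 and 3.82 TPM in replicate 2, from 78 and 70 expected counts. How much of this was spliced RNA cannot be read from these values. Airn-201 led in the first quantification with 33.9 ± 2.72% of the gene, and Airn-203, of 485 bases, in the second with 37.45 ± 2.42%. Airn-205 held 28.7 ± 3.14% and 16.7 ± 1.47%, and Airn-204 12.7 ± 3.10% and 11.1 ± 4.50%. Airn-206 held 14.2 ± 3.99% in the first and was listed at 0 in the second. Airn overlaps the span of Igf2r by 28354 bases on the opposite strand, so its values also depend on how strands were counted.

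Igf2r, the receptor that clears IGF2 and sorts lysosomal enzymes, is known to be used from both copies in mouse neurons although Airn is made there. It had 12.0 TPM in replicate 1 and 12.45 TPM in replicate 2. Igf2r over the annotated forms of Airn was 3.02 ± 0.342 in the first quantification and 1.72 ± 0.212 in the second. Of the transporter genes that Airn silences in placenta, Slc22a3 had 5.17 and 4.74 TPM and Slc22a2 0.29 and 0.24 TPM. Mas1, a receptor gene of forebrain neurons, had 7.75 and 7.77 TPM.

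Nap1l5 (ENSMUSG00000055430.4, mm10 chr6:58905233-58907076, minus strand) is a paternally used gene of the nucleosome assembly protein family, known as intronless. It lies inside Herc3 on the opposite strand. It had 101 TPM in replicate 1 and 97.9 TPM in replicate 2, from 3569 and 3356 expected counts. The single-exon Nap1l5-201 held 98.9 ± 1.11% of it, against 92.5 ± 4.43% in the second quantification. Nap1l5-202, which is annotated with 2 exons, held the rest. Its family member Nap1l1 was close, at 112 and 105 TPM, and Nap1l2, Nap1l3 and Nap1l4 averaged 37.3, 28.4 and 68.6 TPM. All 5 were thus well expressed, with Nap1l5 next to the highest.

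Herc3, the ubiquitin ligase gene around Nap1l5, had 124 TPM in replicate 1 and 123 TPM in replicate 2. Herc3 is known to end before or after Nap1l5 depending on the parental copy. Herc3-202, which runs past Nap1l5, had 57.7 TPM in replicate 1 and 55.9 TPM in replicate 2. This was 45.9 ± 0.922% of the TPM of the gene, against 34.2 ± 0.450% in the second quantification. By expected counts it held far more, 5482 of 6167 in replicate 1 and 5097 of 5709 in replicate 2, since many other Herc3 transcripts are short. The nearest annotated ends upstream of Nap1l5, in Herc3-201 and Herc3-212, lie 1152 and 724 bases before it. Neither held 5% of Herc3 in either quantification. Much of the rest sat in short annotated transcripts that lie near the start of Herc3, far upstream of Nap1l5. Among these, Herc3-205, of 446 bases, held 21.9 ± 3.19% in the first quantification and 40.5 ± 0.780% in the second. The TPM of such short transcripts does not show that Herc3 RNA ends there.

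Trappc9 (ENSMUSG00000047921.16, mm10 chr15:72589620-73061204, minus strand) encodes a subunit of a TRAPP complex, which tethers transport vesicles at the Golgi, and its loss in people causes intellectual disability with a small brain. It had 25.4 TPM in replicate 1 and 26.1 TPM in replicate 2, from 1915 and 1913 expected counts. All 13 other TRAPP genes listed were detected, where 27.6% of all annotated genes were. Their averages ran from 10.8 TPM for Trappc6a to 59.4 TPM for Trappc6b. The list median was 25.2 TPM in replicate 1 and 25.4 TPM in replicate 2, so Trappc9 lay near the middle of the TRAPP genes listed.

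Peg13, a paternal non-coding RNA, is a single exon of 4725 bases inside Trappc9 and on the same strand. It had 59.0 TPM in replicate 1 and 60.4 TPM in replicate 2, or 2.32 ± 0.00838 times Trappc9. Because the strand is shared, its reads cannot be told apart from unspliced Trappc9 RNA by strand. The 3 Trappc9 transcripts that reach past Peg13 held 96.65% of the gene in replicate 1 and 96.8% in replicate 2, against 88.4% and 89.0% in the second quantification. Trappc9-202 was the largest, with 54.45 ± 3.54%, and Trappc9-201 held 33.8 ± 3.38%. Trappc9-204 held 8.49 ± 0.0650%, and Trappc9-205, which ends before Peg13, 1.30 ± 0.165% in the first and 9.06 ± 1.19% in the second quantification. Kcnk9, a two-pore potassium channel gene next to Trappc9, had 25.85 TPM in replicate 1 and 25.6 TPM in replicate 2, a level close to that of Trappc9 in each library. Ago2, Ptk2 and Chrac1 were also detected, so that all 6 neighbours listed were on.

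**Figure D4:**
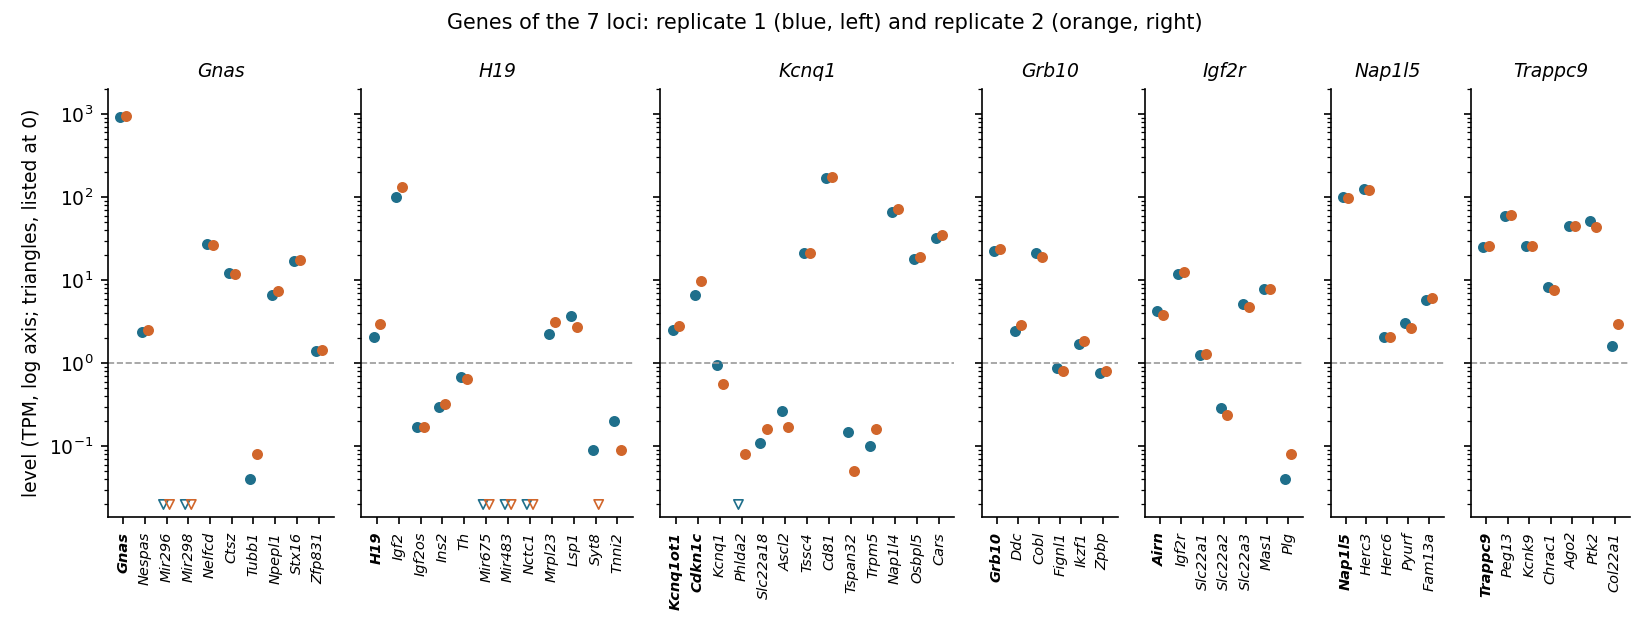
Level in TPM, on a log axis, of each of the 8 genes (bold) and of the 52 matched neighbours at 7 loci, with replicate 1 in blue and replicate 2 in orange and triangles for genes listed at 0. Of the neighbours 31 lie at 1 TPM or more in both libraries, where 27.6% of all annotated genes do. These are all 6 at Trappc9, 3 of 11 at H19 and 5 of 11 in the Kcnq1 domain. The 11 at H19 include the hairpins of Mir675 and Mir483, which have an effective length of 0 and cannot be measured here.

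The machinery that keeps imprints after fertilisation was also read. All 7 genes listed were detected, where 27.6% of all annotated genes were, but they were picked by name. Zfp57, which with its partner Trim28 protects methylated control regions, had 32.1 TPM in replicate 1 and 33.2 TPM in replicate 2, and Trim28 had 124 TPM in both. Zfp445, which works beside Zfp57, averaged 78.8 TPM. Ctcf, which binds the unmethylated H19 control region and insulates Igf2 from the shared enhancers, had 25.3 and 28.8 TPM. Uhrf1, which brings the maintenance methyltransferase to newly made DNA in dividing cells, was lowest at 1.97 and 2.01 TPM, while that enzyme's gene Dnmt1 averaged 24.6 TPM.

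The libraries were compared by log2 of replicate 2 over replicate 1 in TPM plus 0.1, where expected counts averaged at least 100. Airn fell short of that count, so 7 of the 8 genes were read. Of these, 1 reached 0.5 in either direction, Cdkn1c at 0.55, where 2.2% of 12835 genes did. H19 stood just under, at 0.48. The other 5 lay between -0.04 for Nap1l5 and 0.17 for Kcnq1ot1, and Airn, below the minimum count, was at -0.17. The median over all genes was 0.04, with an SD of 0.20. With counts scaled by TMM, Cdkn1c was at 0.35 and none of the 7 reached 0.5, where 0.989% of all genes did. The CPM ratio of H19 was 1.43 (95% Clopper-Pearson interval 1.07 to 1.90, counting error only).

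Cdkn1c and H19, and beside H19 the neighbour Igf2 at 0.38, were all higher in replicate 2. Markers of other cells also differed between these libraries. All 8 choroid plexus markers were higher in replicate 2, with sums of 9.81 TPM in replicate 1 and 316 TPM in replicate 2, of which Ttr alone had 7.35 and 304 TPM. Only 1 of the 8 was detected in both libraries, and several had few counts, such as Otx2 with 1 and 35. Of 8 markers of meningeal and perivascular fibroblasts 7 were higher in replicate 2, with sums of 134 and 165 TPM. Of 6 striatal neuron markers 6 were lower in replicate 2, with sums of 148.5 and 103.5 TPM. All 5 markers of erythroid cells, which carry haemoglobin, were also lower in replicate 2, with sums of 1213 and 836 TPM. Past 0.5 in either direction were 4 erythroid, 3 striatal and 2 fibroblast markers, where 2.2% of all genes with enough counts were. All 8 choroid plexus markers passed as well, but most of them had too few counts for that comparison. The median log2 ratio was 2.28 for choroid plexus, 0.27 for fibroblast, -0.5 for striatal and -0.63 for erythroid markers, against 0.04 over all genes with enough counts. With that median above 0, more of all genes with enough counts were higher than lower in replicate 2. In the lists for endothelial cells, GABAergic interneurons, astrocytes and glutamatergic neurons 0 markers passed 0.5, and in that for mural cells 1 of 6 did. Their part in these results was not tested, and in bulk tissue more cells of a type and more RNA per cell cannot be told apart.

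**Figure D5:**
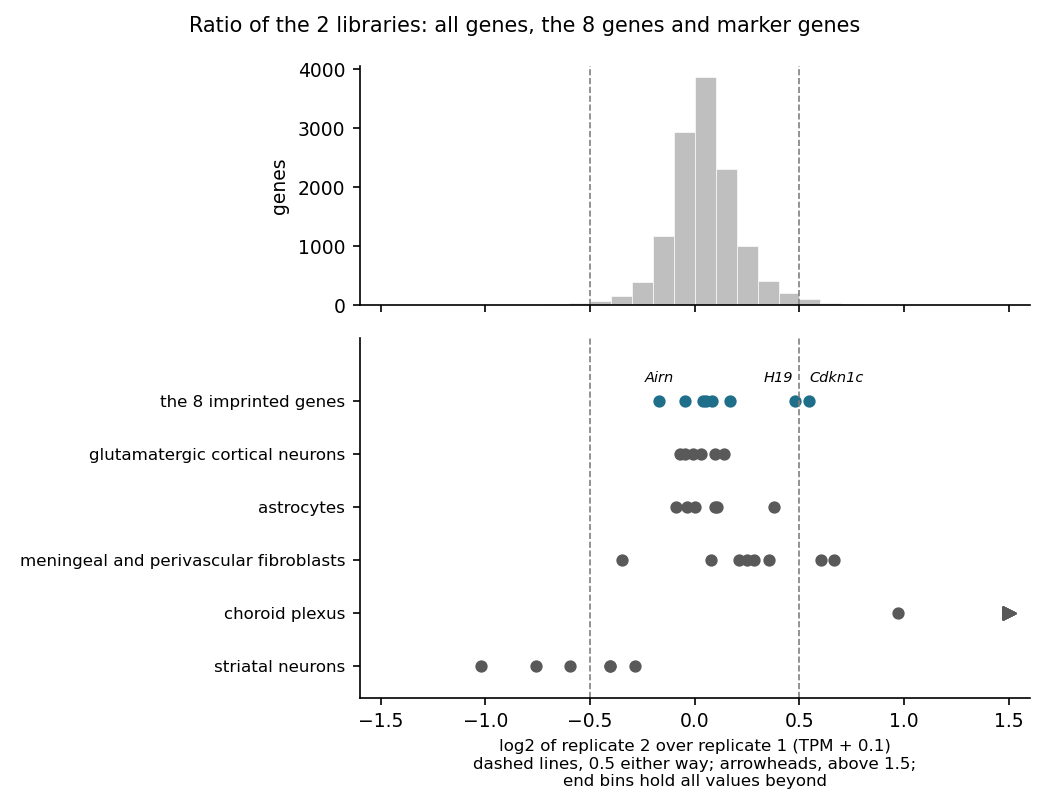
Top, the number of genes at each log2 ratio of replicate 2 over replicate 1, for 12835 genes. Bottom, the same ratio for each of the 8 genes and for marker genes of 5 cell types; Cdkn1c at 0.55 and H19 at 0.48 lie highest of the 8, fibroblast and choroid plexus markers reach further right, and striatal markers lie left of 0.

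Of 26 neighbours with enough counts 1 passed 0.5 in TPM, a share near the 2.2% of all genes. It was the collagen gene Col22a1 at the Trappc9 locus, with 1.63 TPM in replicate 1 and 2.94 TPM in replicate 2. Its deposited effective length was 8177 bases in replicate 1 and 5420 bases in replicate 2, and its log2 ratio was 0.23 with counts scaled by TMM and 0.47 in the second quantification. None of the 46 family and pathway genes with enough counts passed, again beside 2.2% of all genes. All 6 markers of glutamatergic cortical neurons were detected, where 27.6% of all annotated genes were. Their sums were 1207 TPM in replicate 1 and 1196 TPM in replicate 2. All 6 striatal neuron markers were detected too, with sums of 148.5 and 103.5 TPM, so detection alone does not single out cortex. Expected counts summed to 31254528 for replicate 1 and 30218308 for replicate 2, and a chi-square of 5.06 per degree of freedom over 18515 genes showed that they are not 1 library deposited again.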

How the data were processed

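Total RNA-seq of 2 libraries of left cerebral cortex was used as deposited, on mm10 with GENCODE M21, per the text files deposited beside the tables. Per the file headers, the first quantification (from alignments to transcripts) holds expected counts, TPM, FPKM and the percent of each gene held by a transcript, and the second (from reads and an index) holds estimated counts and TPM. The column layouts are those of RSEM and kallisto, but the sources used here name neither programs nor versions nor a strand setting, and the spike-in label speaks of stranded Ribo reduced libraries. The FPKM and percent columns deposited by the authors were not used, and transcript shares were computed from TPM.

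Genes were matched by symbol and the second quantification was summed by gene. Gnas and Grb10 transcripts were grouped where annotated first exons lay within 1000 and 2000 bases of each other. All 8 genes and those of their transcripts with 5% or more of the gene in either quantification are named, and listed neighbours and relatives are named or counted. Pigy had no match. The members and lists were chosen with earlier results of these data known. Ratios used TPM plus 0.1; TMM and median-ratio factors came from edgeR 4.0.16 in R 4.3.3 on counts. Other steps used Python 3.11.15, pandas 2.3.3, scipy 1.17.1 and matplotlib 3.10.9, and the ratio step was tested on simulated data. Intervals cover counting error only and not other variation between the libraries, and reads carry no molecular identifiers here. The chi-square of 5.06 per degree of freedom shows that the libraries differed by more than counting error. Records outside the annotation held 0.359% and 0.354% of the counts.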

Additional observations from a re-analysis of the deposited data

How the results depend on the processing

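Of the 8 genes, 8 were detected at 0.1 TPM or more and in the second quantification, and 5 at 5 TPM or more. Past a log2 ratio of 0.5 between the libraries there was 1 gene in the values reported and without a minimum count, 2 with no pseudocount (H19 joined Cdkn1c), 1 in the second quantification (H19 at 0.79, with Cdkn1c just under at 0.50), and 0 with a pseudocount of 1, with TMM and with median-ratio factors. Of all genes, 24.6% passed without a minimum count, 2.42% with no pseudocount, 3.23% in the second quantification, 1.22% with a pseudocount of 1 and 0.974% with median-ratio factors. The Gs-alpha share of Gnas was 76.4% in the second quantification and 98.45% over protein-coding transcripts, and the exon 1A share was 21.5% and 1.31%. The upstream share of Grb10 was 60.65% in the second quantification, 78.8% by counts and 57.4% over protein-coding transcripts, and the downstream share was 28.3% and 18.5% in the first and second of these. Without 1 of the replicates, the Gs-alpha share was 93.7% to 95.35%, the exon 1A share 3.35% to 5.43%, the upstream share 55.0% to 55.8% and the downstream share 39.3% to 42.9%. Nuclear protein-coding genes held 48.0% of the TPM in replicate 1 and 49.0% in replicate 2. Scaling to their sum therefore raises every level by design, for Gnas to 1910.0 TPM. The causes were not tested. No paired analysis was possible because there is only 1 group. With 2 libraries no difference can be tested, and the low counts of H19 and Airn limit their transcript shares.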
